A study of Mus musculus with 9 samples.

Results

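Troponin is the calcium switch of striated muscle, and the 8 mouse genes that encode its subunits were followed in newborn heart muscle cells after 3 maternal diets. The genes were chosen by name, as all rows of the expression table for troponin I (Tnni1, Tnni2, Tnni3), troponin T (Tnnt1, Tnnt2, Tnnt3) and troponin C (Tnnc1, Tnnc2). All 8 were present among 18738 genes, and all 8 had a mean of at least 1 TPM (a transcript level that accounts for length and is relative to the library total) and were tested. The cells were cardiomyocytes isolated on the day of birth from hearts of wild-type C57BL/6J pups. Their mothers were assigned at random to HFD (high-fat), sHFD (slight high-fat) or ND (normal) chow throughout gestation, and each diet gave 3 RNA-seq libraries. No source used here gives the fat content of the diets, the number of litters or any pooling of pups, so that the p-values measure only the spread between these libraries.

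Troponin C binds calcium, troponin I holds the thin filament in the off state, and troponin T ties the complex to tropomyosin. Heart and skeletal muscle use different genes for each subunit. Tnni3, Tnnt2 and Tnnc1 encode the cardiac complex, Tnnc1 being shared with slow skeletal muscle, while Tnni2, Tnnt3 and Tnnc2 encode the fast skeletal complex. Tnni1 and Tnnt1 encode the slow skeletal troponin I and T. The fetal heart makes Tnni1 protein, which is replaced by Tnni3 protein around and after birth. Only the Tnni3 protein carries the extension at its start through which protein kinase A tunes the calcium response, so the ratio of Tnni1 to Tnni3 is a usual index of the fetal-to-adult switch.

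The libraries differed in more than diet. The summed level of 12 cardiomyocyte markers was 23374 to 29383 TPM in HFD, 35724 to 45954 TPM in sHFD and 19264 to 35047 TPM in ND libraries, with ND replicate 1 the lowest of all. Its members did not move alike. Myl2 was 4240, 4274 and 2677 TPM in HFD replicates and 12048, 5880 and 7730 TPM in sHFD replicates. Pln, Nkx2-5, Myl2, Myl3 and Mybpc3 were lower in every HFD than every sHFD library, as 34.7% of all genes tested were. Myh6, Actc1, Ttn, Ryr2, Actn2, Tcap and Csrp3 overlapped between these diets. Csrp3 was 1413, 1249 and 818 TPM in HFD replicates and 1017, 725 and 970 TPM in sHFD replicates. Immune markers, 8 in number, summed to 199 to 225 TPM in HFD, 272 to 355 TPM in sHFD and 361 to 504 TPM in ND. The 7 fibroblast markers summed to 7224 to 10997 TPM and the 7 endothelial markers to 2764 to 4249 TPM over the 9 libraries. Atrial markers, 7 in number, summed to 14399 to 26751 TPM in HFD, 11336 to 19395 TPM in sHFD and 13556 to 17904 TPM in ND, and 6 red cell markers to 4247 to 7713 TPM in HFD, 9301 to 12961 TPM in sHFD and 8041 to 18753 TPM in ND. The 8 markers of smooth muscle and pericytes summed to 1308 to 1622 TPM in HFD, 1543 to 2360 TPM in sHFD and 1230 to 1435 TPM in ND. The largest member was Acta2, and the members went both ways. Pdgfrb, Rgs5, Cspg4 and Kcnj8 were lower in every HFD than every ND library, as 22.9% of all genes tested were. Kcnj8 was 8.52 to 10.2 TPM in HFD and 20.6 to 27.3 TPM in ND. Tagln and Cnn1 were higher in every HFD than every ND library, as 5.00% of all genes were, and Acta2 and Myh11 overlapped. The part of these differences in the troponin values was not tested. In such bulk samples fewer cells of a type and less RNA per cell cannot be told apart.

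In all 9 libraries the troponin transcripts were mostly those of the cardiac genes together with the fetal troponin I. Tnnt2, cardiac troponin T, ranked between 3 and 10 among all genes of a library. Tnnc1, cardiac troponin C, ranked between 19 and 82, Tnni3, cardiac troponin I, between 23 and 69, and Tnni1 between 47 and 150. Together the 8 genes held 0.908% to 1.24% of the total in HFD, 1.096% to 1.82% in sHFD and 0.814% to 1.27% in ND libraries.

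Tnni1 was 1533, 1227 and 850.1 TPM in HFD replicates 1 to 3, 1832, 1139.6 and 1437 TPM in sHFD replicates, and 875, 1427 and 1098 TPM in ND replicates. Tnni3 was 1908, 1862 and 1446 TPM in HFD replicates, 2890.3, 1895 and 2729 TPM in sHFD replicates, and 1541, 2477 and 2185 TPM in ND replicates. For both genes the diets overlapped, with sHFD replicate 1 the highest library of all. Tnnt2 was 6241, 5258 and 5299 TPM in HFD replicates, 9973, 5903 and 6814 TPM in sHFD replicates, and 4226, 6275 and 5440.45 TPM in ND replicates. Tnnc1 was 2606, 2154 and 1399.7 TPM in HFD replicates, 3373, 1922 and 2842 TPM in sHFD replicates, and 1421, 2408 and 2014 TPM in ND replicates. The diets overlapped here too, sHFD replicate 1 was again the highest, and ND replicate 1 was the lowest ND library in all 4 genes.

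**Figure D1:**
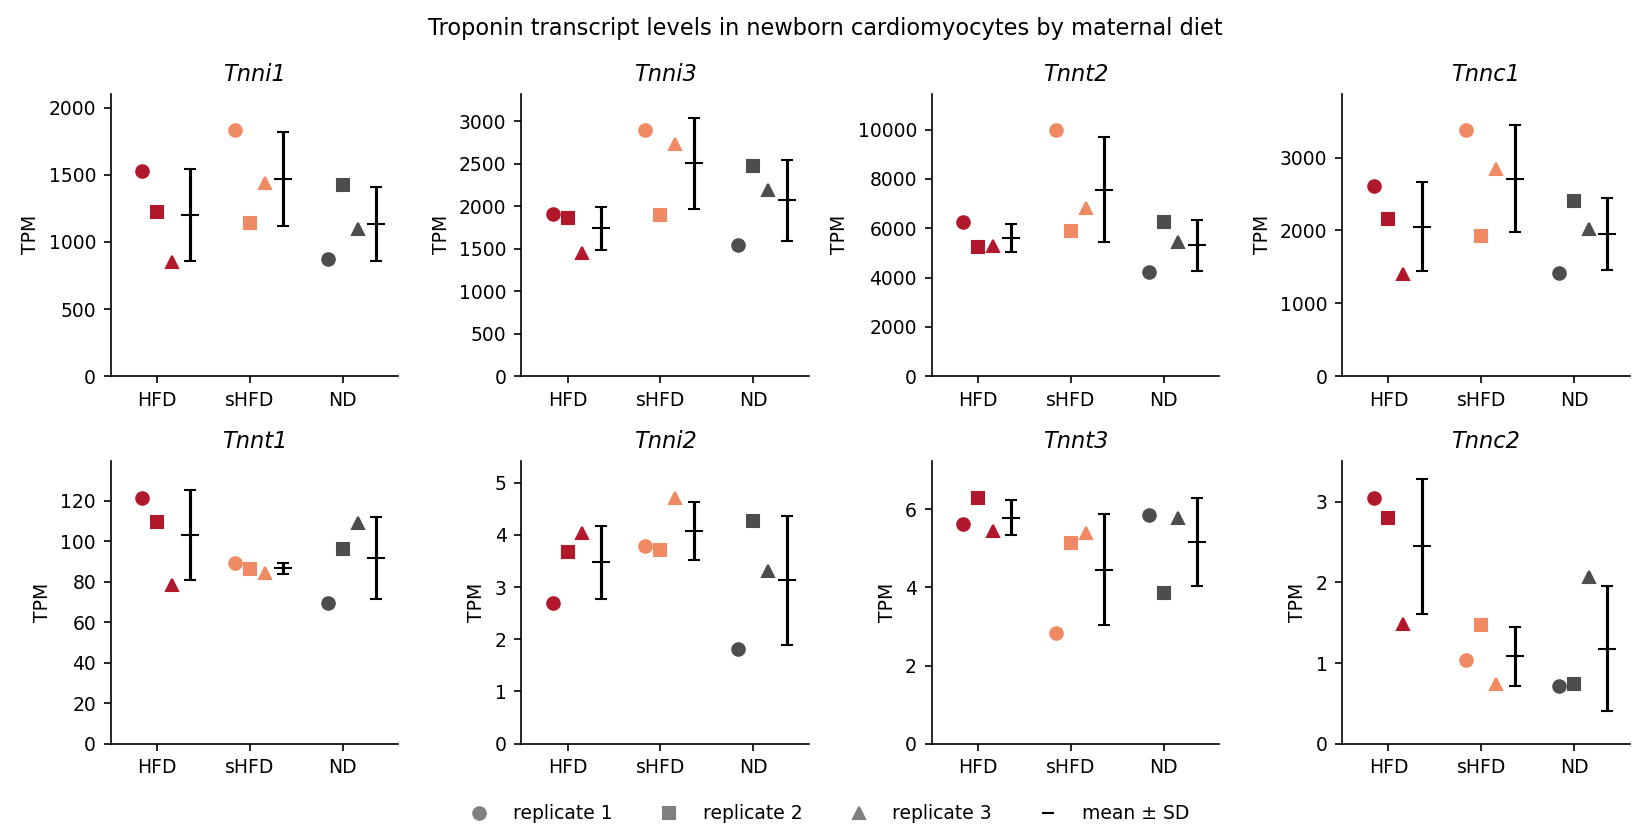
TPM of the 8 troponin genes by maternal diet, each point 1 library (circle, square and triangle for replicates 1, 2 and 3) and each black bar the mean with its SD of 3 libraries. The upper row holds Tnni1, Tnni3, Tnnt2 and Tnnc1, between 850.1 and 9973 TPM, and in none of these 4 does a diet stand clear of the other diets.

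The order of the levels was Tnnt2 first, then Tnnc1 and Tnni3, then Tnni1, then Tnnt1, then the fast skeletal genes. Tnnt2 exceeded every other troponin gene in all 9 libraries, being 2.40 to 3.79 times Tnnc1. Tnnc1 and Tnni3 were not separable, as Tnnc1 was above Tnni3 in 5 of 9 libraries and below it in 4. Tnni1 lay below Tnni3 in 9 of 9 libraries and was 10.05 to 20.5 times Tnnt1.

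Tnnt1, slow skeletal troponin T, was 121, 109.8 and 78.3 TPM in HFD replicates, 89.4, 86.1 and 84.4 TPM in sHFD replicates, and 69.6, 96.0 and 109 TPM in ND replicates. The diets overlapped in TPM. Tnnt1 made up 1.46% to 2.04% of all troponin T transcripts in HFD, 0.889% to 1.44% in sHFD and 1.51% to 1.97% in ND libraries. In this share every sHFD library lay below every HFD and every ND library, with a narrow gap to HFD, and this was not tested. The 3 fast skeletal genes stayed low, Tnnt3 at 2.82 to 6.29 TPM, Tnni2 at 1.82 to 4.71 TPM and Tnnc2 at 0.72 to 3.05 TPM over the 9 libraries. Tnnt3 was above Tnni2 in 7 of 9 libraries, and Tnni2 above Tnnc2 in 8 of 9. Skeletal muscle markers ran from far below to far above these genes. The adult fast myosins Myh4 and Myh1 reached 0.34 and 0.61 TPM at most, and the muscle regulatory genes Myog and Myf6 reached 0.45 and 0.13 TPM. The fast light chain Mylpf lay at 2.24 to 3.92 TPM, and the light chain Myl1 was higher, at 195 to 393 TPM in HFD, 128 to 252 TPM in sHFD and 201 to 230.5 TPM in ND libraries. Perinatal myosin Myh8 was 11.7, 12.7 and 9.10 TPM in HFD replicates, 3.28, 4.96 and 5.47 TPM in sHFD replicates, and 4.53, 3.99 and 4.11 TPM in ND replicates, so that the HFD libraries were the highest. Its part in the values of Tnnc2 and Tnnt3 was not tested. Of 20 skeletal muscle markers in the table, 11 were below 1 TPM in every library. Their summed level of 1348 to 2207 TPM in HFD, 1727 to 2305 TPM in sHFD and 1343 to 1761 TPM in ND libraries was mostly Ckm, the muscle creatine kinase that heart uses as well.

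The I, T and C genes are scattered in linked pairs, given here as RefSeq GRCm38.p6 positions. Tnni1 (chr1:135783033-135810989) and Tnnt2 (chr1:135836315-135852268) lie on the same strand with 25.3 kb between them. Tnni3 (chr7:4518305-4522718) lies 2329 bases from Tnnt1 (chr7:4504569-4515975), with no gene annotated between. Tnni2 (chr7:142441816-142444410) and Tnnt3 (chr7:142498771-142516213) are 54.4 kb apart. Tnnc1 (chr14:31208312-31211729) and Tnnc2 (chr2:164777161-164779734) lie alone. Neighbours differed in level, Tnni3 being 15.7 to 32.3 times its neighbour Tnnt1 in the same library. The genes next to the pairs were low, Lad1, between Tnni1 and Tnnt2, at 2.25 to 4.12 TPM and Dnaaf3, beside Tnni3, at 1.68 to 3.42 TPM. Lsp1, a leukocyte gene between Tnni2 and Tnnt3, was higher, at 38.7 to 41.8 TPM in HFD, 83.3 to 111 TPM in sHFD and 81.8 to 119.7 TPM in ND libraries.

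The 4 abundant genes moved together from library to library. Over the 9 libraries the Pearson r of log2(TPM + 1) was 0.98 for Tnni1 with Tnnc1, 0.90 for Tnni3 with Tnnc1, 0.87 for Tnnt2 with Tnnc1, 0.86 for Tnni1 with Tnnt2, 0.85 for Tnni1 with Tnni3 and 0.81 for Tnni3 with Tnnt2. These are descriptions over libraries that share a unit relative to the total. Tnnt1 moved less with them, at 0.50 with Tnni1 and 0.20 with Tnnt2, and Tnnt3 ran against Tnnt2 at -0.83. The sequences before the starts of the 4 genes are shown because these are the members that moved together, and they include the pair of the switch. They are on the strand of the gene, come from the 250 bases before the first start listed in the RefSeq GRCm38.p6 promoter table, and leave out bases that GENCODE annotates as exon, so that the Tnni1 stretch ends 20 bases before that start and the Tnni3 stretch begins 166 bases before it. The starts used for Tnni1, Tnni3 and Tnnt2 lie inside the spans given above for these genes, and that of Tnnc1 at the edge of its span. Capitals mark GATAA, the core of sites for GATA factors, and CATTCC, the M-CAT element first described in the chicken cardiac troponin T promoter, on either strand, so that GATAA reads TTATC and CATTCC reads GGAATG where they lie on the other strand, and the stretches of Tnni1 and Tnni3 hold none.
Tnni1 (chr1:135799171-135799401, plus strand): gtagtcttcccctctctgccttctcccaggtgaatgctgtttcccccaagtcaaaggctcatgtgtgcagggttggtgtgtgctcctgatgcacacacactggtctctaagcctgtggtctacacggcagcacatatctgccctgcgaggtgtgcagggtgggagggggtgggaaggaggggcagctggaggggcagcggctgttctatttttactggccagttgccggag
Tnni3 (chr7:4522529-4522694, minus strand): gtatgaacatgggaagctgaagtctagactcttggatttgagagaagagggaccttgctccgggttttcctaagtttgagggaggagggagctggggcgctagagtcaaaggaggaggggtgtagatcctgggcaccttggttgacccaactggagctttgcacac
Tnnt2 (chr1:135836084-135836333, plus strand): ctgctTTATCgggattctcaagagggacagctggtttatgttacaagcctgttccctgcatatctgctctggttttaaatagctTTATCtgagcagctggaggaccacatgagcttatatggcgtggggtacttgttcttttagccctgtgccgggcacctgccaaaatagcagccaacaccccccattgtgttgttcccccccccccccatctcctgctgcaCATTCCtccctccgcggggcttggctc
Tnnc1 (chr14:31208062-31208311, plus strand): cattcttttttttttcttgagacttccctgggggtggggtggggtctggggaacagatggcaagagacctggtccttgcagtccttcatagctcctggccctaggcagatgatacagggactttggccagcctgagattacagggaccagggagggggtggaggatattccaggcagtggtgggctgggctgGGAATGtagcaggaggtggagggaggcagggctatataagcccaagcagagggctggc
Within the full window from 250 bases before to 50 bases after the start, Tnnt2 held 2 GATAA matches, 245 and 166 bases before the start, and a CATTCC match 27 bases before it. Tnnc1 held a CATTCC match 58 bases before its start. Tnni3 held 2 GATAA matches just after its start, from bases 19 and 26 of the transcript, and neither motif was found in the Tnni1 window. Of 27025 promoter windows of this length in the table, 25.8% held GATAA and 14.6% held CATTCC, and the 2 motifs do not overlap each other in these 4 windows.

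The genes whose pattern was most like that of Tnni1, among 10938 with a mean of at least 5 TPM and other than the troponin genes, were Ndufb8, Cox7b, Atp5o, Cisd3 and Cox4i1, with a Pearson r of 0.98, 0.98, 0.98, 0.98 and 0.97 over the 9 libraries. Those most like Tnni3 were Mrpl53 (r = 0.98), Mrpl42 (0.97), Akr1b3 (0.97), Uqcrb (0.97) and Tmem147 (0.96). Ndufb8, Cox7b, Atp5o, Cox4i1 and Uqcrb encode parts of the respiratory chain and ATP synthase, and Mrpl53 and Mrpl42 encode mitochondrial ribosomal proteins. Akr1b3 is an aldose reductase.

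The 4 abundant genes also followed the cardiomyocyte markers. Against the log2 of the 12-marker sum over the 9 libraries, the Pearson r was 0.90 for Tnnt2, 0.85 for Tnni1, 0.83 for Tnnc1 and 0.79 for Tnni3, against 0.18 for Tnnt1 and -0.74 for Tnnt3. Set against that sum, Tnni3 was 64.9, 66.2 and 61.9 TPM per 1000 TPM of markers in HFD replicates, 62.9, 52.6 and 76.4 in sHFD replicates, and 80.0, 70.7 and 94.8 in ND replicates. The sum holds Myl2, Myl3 and Pln, all lower in HFD than in sHFD (limma adjusted p = 0.0228, 0.0176 and 0.0189). Values on this scale therefore carry the change of these genes as well. On this scale the HFD libraries all lay below the ND libraries for Tnni3, as for 21.0% of all genes tested (0.871% lay above), while these diets overlapped for the other 7 troponin genes. Between sHFD and ND, Tnni1 and Tnnt1 lay lower in all sHFD libraries, as did 32.2% of all genes (0.0952% lay higher). Between HFD and sHFD, Tnnt1, Tnnt3 and Tnnc2 lay higher in all HFD libraries, as did 36.2% of all genes (8.21% lay lower). Tnnt2 on this scale was 212, 187 and 227 in HFD replicates, 217, 164 and 191 in sHFD replicates, and 219, 179 and 236 in ND replicates, and all diets overlapped.

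**Figure D2:**
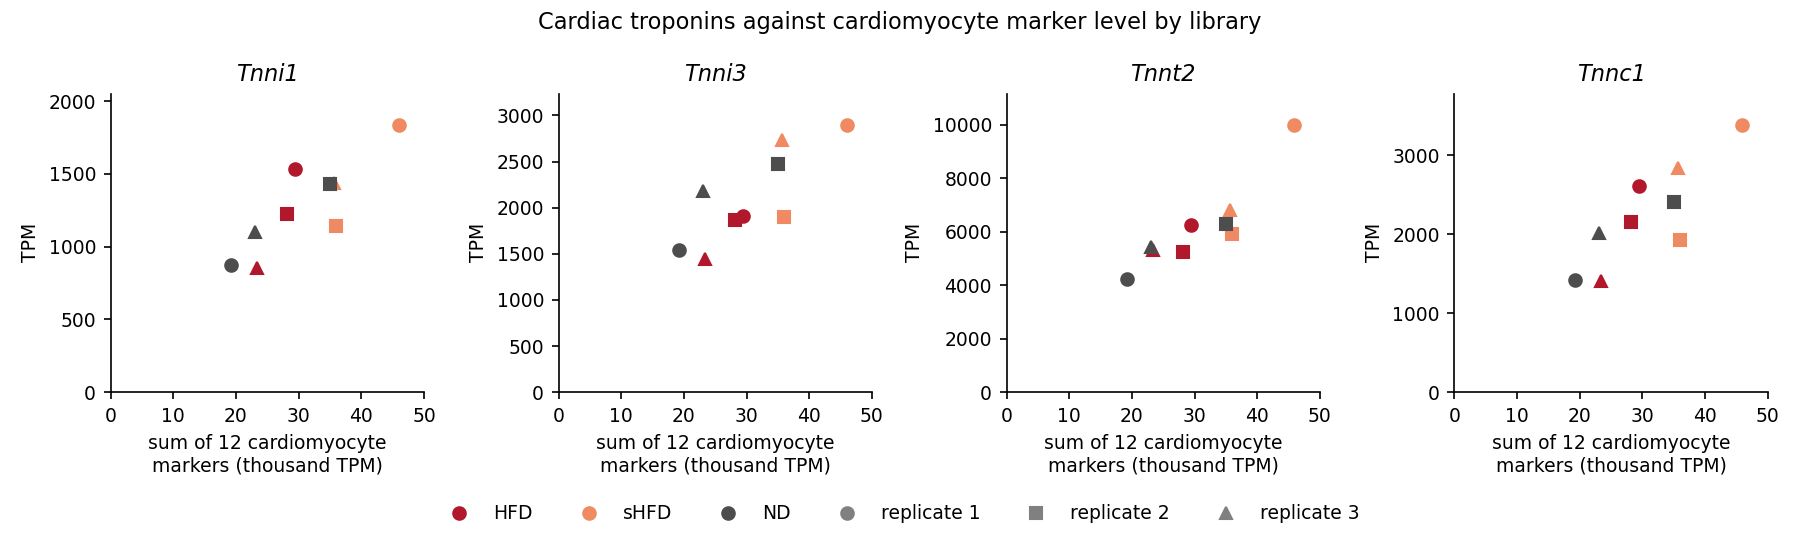
TPM of Tnni1, Tnni3, Tnnt2 and Tnnc1 in each library against the summed TPM of 12 cardiomyocyte markers, with colour for diet and symbol for replicate. The marker sum runs from 19264 TPM in ND replicate 1 to 45954 TPM in sHFD replicate 1, and the 4 genes rise along it.

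Between HFD and ND, none of the 8 troponin genes passed limma's test at an adjusted p of 0.05, in a fit where 10.9% of 13655 genes did, 1.28% higher and 9.59% lower in HFD. Their adjusted p ran from 0.122 to 0.905, and 1 of the 8, Tnnc2, had an unadjusted p under 0.05, as 4067 of all genes did. Tnni1 averaged 1203 ± 342 TPM in HFD and 1133 ± 278 TPM in ND (SD, n = 3 each), giving a log2 change of 0.074 with a 95% interval of -0.48 to 0.62 (limma adjusted p = 0.879). Tnni3 averaged 1739 ± 254 TPM in HFD and 2068 ± 479 TPM in ND (SD, n = 3 each), giving a log2 change of -0.23 with an interval of -0.73 to 0.27 (limma adjusted p = 0.534). The pseudocount of 1 TPM makes the fold changes of low genes too small. The intervals leave room for changes of more than 1.5-fold in some of these genes.

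Tnnt2 averaged 5599 ± 556 TPM in HFD and 5314 ± 1030.2 TPM in ND, a log2 fold change of 0.090 with a 95% interval of -0.45 to 0.63 in limma's fit. Tnnc1 averaged 2053 ± 609 TPM in HFD and 1948 ± 497 TPM in ND, a log2 fold change of 0.063 with an interval of -0.55 to 0.67. Tnnt1, Tnni2 and Tnnt3 had log2 differences of 0.17, 0.15 and 0.15. Tnnc2 was 3.05, 2.80 and 1.49 TPM in HFD replicates and 0.72, 0.74 and 2.07 TPM in ND replicates, a log2 difference of 0.69 (SE 0.28, limma adjusted p = 0.122). The size of this value depends on the pseudocount, being 1.09 with 0.1 TPM and 0.27 with 5 TPM. These Tnnc2 libraries overlapped through HFD replicate 3 and ND replicate 3, and at such low levels the number of reads behind a value is unknown. No troponin gene had HFD libraries clear of the ND libraries, a pattern that 27.9% of all genes tested showed. The median log2 difference of the 8 genes was 0.12, against -0.14 for all genes tested.

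Without ND replicate 1 the differences of Tnni1, Tnni2, Tnnt1, Tnnt2 and Tnnc1 turned negative, at -0.098, -0.10, -0.013, -0.066 and -0.15, and without HFD replicate 1 those of Tnni1 and Tnnc1 did, at -0.12 and -0.13. Quantile normalization also turned Tnni1, to -0.020. The median of all genes in HFD vs ND was 0.0059 after median-ratio scaling and 0.00022 after quantile normalization, against -0.14 as deposited, and Tnni1, Tnnt1, Tnnt2 and Tnnc1 were 0.23, 0.33, 0.25 and 0.22 after median-ratio scaling. Tnni3 alone among the 5 more abundant genes kept a negative difference in every alternative fit, from -0.43 to -0.075, the smallest after median-ratio scaling and the most negative without ND replicate 1, though its adjusted p never passed, ranging from 0.196 to 0.877. It was -0.089 without ND replicate 2 and -0.11 without HFD replicate 3. The number of all genes called rested on single libraries as well: it was 1484 in the full fit and, leaving out one library, 3842, 624 and 39 (ND replicates 1, 2 and 3), 877 (sHFD replicate 3), and 127 and 32 (HFD replicates 1 and 2). Of the 1484 genes, 175 were higher and 1309 lower in HFD, against 642 higher and 997 lower after median-ratio scaling and 427 higher and 637 lower after quantile normalization.

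The fetal-to-adult ratio of troponin I was higher in all HFD than in all ND libraries, although Tnni1 and Tnni3 each overlapped. Tnni1/Tnni3 was 0.803, 0.659 and 0.588 in HFD replicates, 0.634, 0.601 and 0.526 in sHFD replicates, and 0.568, 0.576 and 0.502 in ND replicates. Every HFD library lay above every ND library, while the sHFD libraries overlapped with both. The gap was narrow, between HFD replicate 3 at 0.588 and ND replicate 2 at 0.576. Among single genes tested, 27.9% had HFD libraries clear of ND libraries, and no such share was computed for ratios or percentages. The adult form stayed the more abundant transcript in all 9 libraries. Tnni1 made up 44.5%, 39.7% and 37.0% of all troponin I transcripts in HFD replicates, 38.8%, 37.5% and 34.5% in sHFD replicates, and 36.2%, 36.5% and 33.4% in ND replicates. A ratio within a library does not change when all its values are multiplied by the same factor. Quantile normalization is not such a scaling and can change it. There the log2 differences between HFD and ND were -0.020 for Tnni1 and -0.27 for Tnni3, against 0.074 and -0.23 as deposited.

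The mean ratio was 0.683 ± 0.110 in HFD and 0.549 ± 0.040 in ND (SD, n = 3 each), giving a log2 difference of 0.31 or 1.24-fold. An exact two-sided permutation test gave p = 0.1, the smallest p that 3 against 3 libraries allow, so the difference could not pass 0.05 whatever its size. The log2 difference was 0.18 without HFD replicate 1, the library with the highest ratio, and 0.33 without ND replicate 1. sHFD differed from ND by 0.10 (0.587 ± 0.055 in sHFD, n = 3, exact permutation p = 0.4) and HFD from sHFD by 0.21 (exact permutation p = 0.3). A single exact permutation test over the 3 diets, with 1680 assignments of the libraries and a smallest p of 0.00357, gave p = 0.125. With a library left out, the p of this permutation test ran from 0.0357, without HFD replicate 3, to 0.318.

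**Figure D3:**
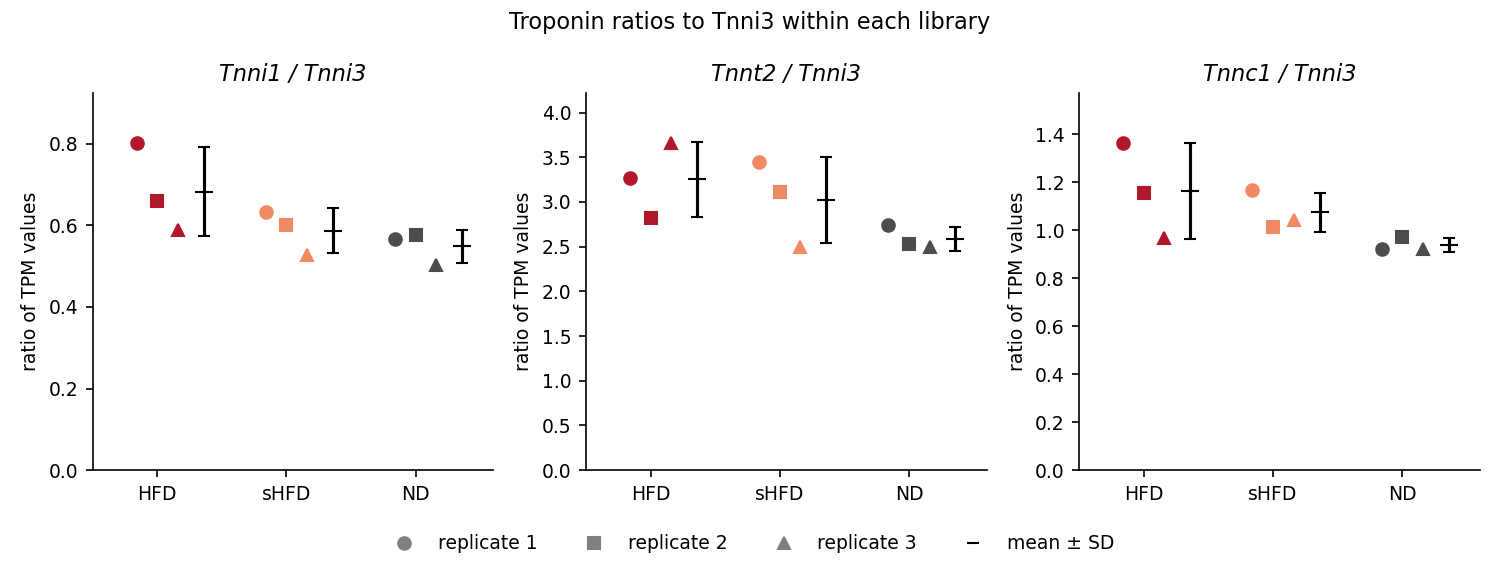
Ratios of Tnni1, Tnnt2 and Tnnc1 to Tnni3 in each library by maternal diet, each point 1 library and each black bar the mean with its SD of 3 libraries. For Tnni1/Tnni3 the HFD libraries lie between 0.588 and 0.803 and the ND libraries between 0.502 and 0.576, and the sHFD libraries overlap with both.

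Other troponins were set against Tnni3 in the same way, with the caution that these ratios share their denominator. Tnnt2/Tnni3 was 3.27, 2.82 and 3.66 in HFD replicates, 3.45, 3.12 and 2.50 in sHFD replicates, and 2.74, 2.53 and 2.49 in ND replicates, so that HFD and ND libraries did not overlap. Tnnc1/Tnni3 was 1.37, 1.16 and 0.968 in HFD replicates, 1.17, 1.01 and 1.04 in sHFD replicates, and 0.922, 0.972 and 0.922 in ND replicates. Here HFD replicate 3 fell just under ND replicate 2, and the sHFD libraries all lay above the ND libraries. Tnnc1/Tnni1, a ratio without Tnni3, was 1.65 to 1.76 in HFD, 1.69 to 1.98 in sHFD and 1.62 to 1.83 in ND libraries, with all diets overlapping. Tnnt2/Tnni1 was 4.07 to 6.23 in HFD, 4.74 to 5.44 in sHFD and 4.40 to 4.96 in ND libraries and overlapped as well. These ratios are descriptions and were not tested.

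Between the subunits, troponin T transcripts summed to 1.74 to 2.34 times troponin I transcripts in HFD, 1.66 to 2.13 times in sHFD and 1.63 to 1.78 times in ND libraries. Troponin C transcripts were 0.609 to 0.758 of troponin I in HFD, 0.633 to 0.714 in sHFD and 0.588 to 0.616 in ND libraries. Tnnc2 made up 0.117%, 0.130% and 0.106% of troponin C transcripts in HFD replicates, 0.0308%, 0.0764% and 0.0260% in sHFD replicates, and 0.0506%, 0.0307% and 0.103% in ND replicates, with every HFD library above all others. HFD replicate 3 and ND replicate 3 were close in this share, and Tnnc2 itself was lower in HFD replicate 3 (1.49 against 2.07 TPM). Tnnc1, which makes up nearly all of the denominator, was lowest in HFD replicate 3, at 1399.7 TPM. These Tnnc2 levels are low and their read number is unknown. For the sums of T and C per I the diets overlapped, except that the C per I of the sHFD libraries lay above that of the ND libraries.

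Between sHFD and ND, 0 of 8 troponin genes passed limma's test, where 0.00732% of all genes, a single gene, did. None of the 8 had an unadjusted p under 0.05, against 1005 of 13655 genes. The 4 abundant genes had log2 differences between 0.28 and 0.49, led by Tnnt2 at 7563 ± 2136 TPM in sHFD and 5314 ± 1030.2 TPM in ND (SD, n = 3 each), 0.49 with a 95% interval of -0.046 to 1.03 (limma adjusted p = 0.674). Tnnc1, Tnni1 and Tnni3 had log2 differences of 0.47, 0.38 and 0.28 with adjusted p of 0.686, 0.716 and 0.755 in limma's fit. Without ND replicate 1 those of Tnnc1, Tnni1 and Tnni3 were 0.26, 0.20 and 0.082, and without sHFD replicate 1 those of Tnnt2, Tnnc1, Tnni1 and Tnni3 were 0.27, 0.30, 0.20 and 0.16. Tnni3 was 0.42 without ND replicate 2 and 0.47 without sHFD replicate 2. The cardiomyocyte marker sum was also higher in sHFD libraries, all 3 lying above all ND libraries, and its part in these differences was not tested. All 8 genes had overlapping libraries, against 9.40% of genes that did not overlap (4.50% higher and 4.90% lower in sHFD). Without ND replicate 2, 360 genes passed the test over the table and still 0 troponin genes.

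Between HFD and sHFD, 0 of 8 troponin genes passed, against 34.2% of all genes (10.3% higher and 23.9% lower in HFD), and 2 of 8 had an unadjusted p under 0.05, against 6228 of 13655. Tnni3 averaged 1739 ± 254 TPM in HFD and 2505 ± 534 TPM in sHFD (SD, n = 3 each), giving a log2 difference of -0.51 (SE 0.23, 95% interval -1.02 to -0.01, limma adjusted p = 0.103). It passed after quantile normalization (limma adjusted p = 0.0458), and its difference was negative in every alternative fit, from -0.70 to -0.34. Tnnc2 was 3.05, 2.80 and 1.49 TPM in HFD replicates and 1.04, 1.47 and 0.74 TPM in sHFD replicates, a log2 difference of 0.71 (SE 0.28, limma adjusted p = 0.0664), which was 1.09 with a pseudocount of 0.1 TPM and 0.29 with 5 TPM. The Tnnc2 libraries of the 2 diets did not overlap, but only 0.02 TPM separated HFD replicate 3 from sHFD replicate 2. Tnnc2 passed after median-ratio scaling, after quantile normalization, with these 2 diets alone, without ND replicate 3 and without HFD replicate 3, at limma adjusted p of 0.0413, 0.0274, 0.0317, 0.0474 and 0.0348. Tnnt3 was 5.61, 6.29 and 5.44 TPM in HFD replicates and 2.82, 5.13 and 5.40 TPM in sHFD replicates, also without overlap and by only 0.04 TPM. Its log2 difference was 0.35 (limma adjusted p = 0.274), and 0.70 after quantile normalization, where it passed (limma adjusted p = 0.0385). Without sHFD replicate 1, the lowest Tnnt3 library, it was 0.11 (limma adjusted p = 0.755), and with a pseudocount of 5 TPM it was 0.20. These were the 2 of 8 genes whose libraries did not overlap, both higher in HFD, where 51.3% of all genes had that pattern, 16.6% higher and 34.7% lower in HFD.

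Tnni1, Tnnt2 and Tnnc1 had log2 differences of -0.30, -0.40 and -0.41 between HFD and sHFD, with limma adjusted p of 0.375, 0.226 and 0.275. Without sHFD replicate 1 they were -0.13, -0.18 and -0.23, and after median-ratio scaling -0.13, -0.23 and -0.24. Without HFD replicate 3 Tnni1 and Tnnc1 were -0.073 and -0.16, without sHFD replicate 2 they were -0.47 and -0.64, without HFD replicate 1 Tnni1 was -0.50, and after quantile normalization Tnnt2 was -0.18. The median over the 8 genes was -0.25, against -0.16 for all genes tested, a median that was -0.0050 after median-ratio scaling. The 34.2% of genes called comprised 4665 genes, 1406 higher and 3259 lower in HFD, against 2608 higher and 2600 lower after median-ratio scaling and 2401 higher and 2407 lower after quantile normalization. The count was 3037 without sHFD replicate 1, 3092 without sHFD replicate 3 and 2696 without HFD replicate 2. The 3 comparisons share libraries in pairs, so they are not independent of each other.

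**Figure D4:**
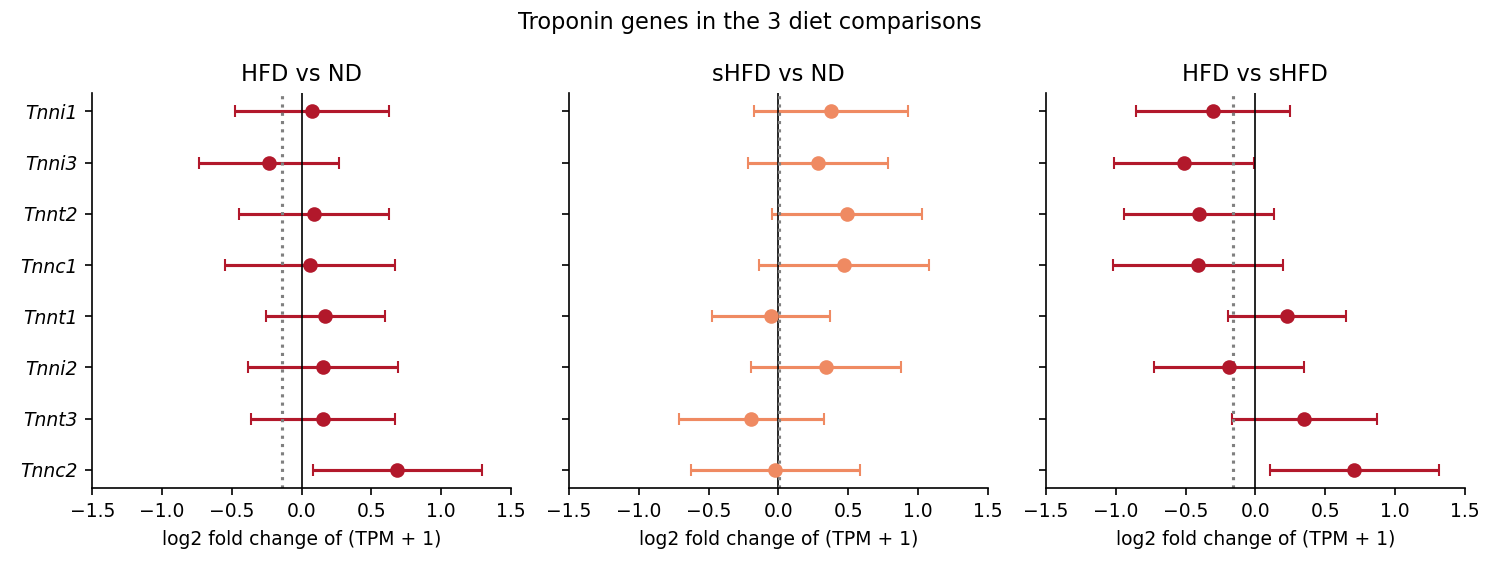
Log2 fold change of (TPM + 1) of the 8 troponin genes in the 3 diet comparisons, points with bars for the 95% interval of limma's fit, a solid line at 0 and a dotted line at the median of all 13655 genes tested. No gene passed an adjusted p of 0.05, and the points furthest above 0 are those of Tnnc2 (0.69 for HFD vs ND, 0.71 for HFD vs sHFD).

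Of the other genes of the thin filament, the actin strand on which troponin sits, 0 of 23 tested passed in HFD vs ND, 0 in sHFD vs ND and 2 in HFD vs sHFD, both lower in HFD. Over all genes 10.9%, 0.00732% and 34.2% passed in these comparisons, so that the list had fewer calls for its size than the table in HFD vs ND and HFD vs sHFD. Lmod3, a leiomodin that nucleates thin filaments, fell to 11.01 ± 1.33 TPM in HFD, against 31.7 ± 3.79 TPM in sHFD (SD, n = 3 each), by 1.44 on the log2 scale (limma adjusted p = 0.00872). Xirp2, an actin-binding Xin repeat protein, fell to 0.727 ± 0.384 TPM in HFD, against 2.95 ± 0.60 TPM in sHFD (limma adjusted p = 0.0122). These levels are near the lower end of the genes tested. The Xirp2 log2 difference was -1.21, against -1.96 with a pseudocount of 0.1 TPM and -0.47 with 5 TPM. The median of the list in HFD vs sHFD was -0.23, against -0.16 for all genes.

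Among 19 contractile and calcium-cycling genes that switch around birth, 1 passed in HFD vs ND, 0 in sHFD vs ND and 6 in HFD vs sHFD, 2 of them with higher and 4 with lower levels in HFD. Against the 10.9% and 34.2% of all genes called in HFD vs ND and HFD vs sHFD, 1 and 6 of 19 are not more than the background. This holds with both directions together. The 1 of 19 in HFD vs ND was higher in HFD, as 1.28% of all genes were, a smaller share, and this was not tested. Myh7, the fetal beta-myosin, was the gene that rose in HFD vs ND, and Myh7/Myh6 was 0.187, 0.200 and 0.120 in HFD libraries, against 0.088, 0.025 and 0.040 in ND libraries. Its log2 fold change was 2.01 (limma adjusted p = 0.00919), and it missed the threshold without ND replicate 3 (limma adjusted p = 0.0602) and without HFD replicate 2 (limma adjusted p = 0.0535). In HFD vs sHFD, Myh7 rose by 2.69 (limma adjusted p = 0.000703) and Myh7b, a slow myosin, changed by -1.53 (limma adjusted p = 0.00331). Myl3, the ventricular essential light chain, changed by -0.98 (limma adjusted p = 0.0176), and missed the threshold without sHFD replicate 1 (0.0766), without HFD replicate 3 (0.0625), after median-ratio scaling (0.0626) and with no filter (0.0507). The median of this list was 0.16 for HFD vs ND, where that of all genes was -0.14, and -0.25 for HFD vs sHFD, where that of all genes was -0.16.

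Of 31 tested genes that act on troponin genes or proteins (transcription factors, splicing factors, kinases, thyroid hormone genes and proteases), 2 rose and 1 fell in HFD vs ND, 0 changed in sHFD vs ND, and 2 rose and 6 fell in HFD vs sHFD. Over all genes 10.9% and 34.2% were called in HFD vs ND and HFD vs sHFD. With both directions together, these 3 and 8 of 31 are not more than the background either. By direction, 1.28% of all genes were higher and 9.59% lower in HFD vs ND. The 2 of 31 that rose there are a larger share than 1.28%, which was not tested. Rbm24, an RNA-binding splicing factor of heart muscle, rose to 247 ± 38.9 TPM in HFD, against 145 ± 47.9 TPM in ND (limma log2 0.80, adjusted p = 0.0329). Srf, the serum response factor, rose to 137 ± 17.7 TPM in HFD, against 92.9 ± 6.88 TPM in ND (limma log2 0.55, adjusted p = 0.0333). Capn1, the protease calpain-1, fell to 19.1 ± 3.29 TPM in HFD, against 33.7 ± 3.66 TPM in ND (limma log2 -0.80, adjusted p = 0.0171). Each of these calls was lost when certain single libraries were left out, and in those fits the log2 change was 0.59 to 0.94 for Rbm24, 0.47 to 0.56 for Srf and -0.78 to -0.70 for Capn1. Leaving out an sHFD library changes the error of this comparison and not the fold. Rbm24 missed the threshold without ND replicate 3, sHFD replicate 3 and HFD replicates 1, 2 and 3 (limma adjusted p = 0.154, 0.0543, 0.0607, 0.14 and 0.0642). Srf missed it without ND replicates 2 and 3, sHFD replicates 1 and 3 and HFD replicates 1 and 2 (limma adjusted p = 0.0955, 0.117, 0.0523, 0.0578, 0.123 and 0.138). Capn1 missed it without ND replicate 3 and HFD replicates 1 and 2 (limma adjusted p = 0.0837, 0.0778 and 0.0899). Fitted on HFD and ND alone, all 3 missed it (limma adjusted p = 0.0781 for Rbm24, 0.0824 for Srf and 0.0527 for Capn1), and Rbm24 also with no filter (0.0649).

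In HFD vs sHFD the regulators with the smallest p were Dio2, Capn1 and Tnni3k, and each passed in 9 of 9 fits with a library left out. Tnni3k, a cardiac kinase named for its binding to cardiac troponin I, fell to 32.7 ± 4.14 TPM in HFD, against 68.9 ± 11.8 TPM in sHFD (SD, n = 3 each), by 1.05 on the log2 scale (limma adjusted p = 0.00919). Capn1 fell by 0.77 (limma adjusted p = 0.00588). Dio2, the deiodinase that activates thyroid hormone, fell to 0.423 ± 0.129 TPM in HFD, against 2.68 ± 0.83 TPM in sHFD (limma adjusted p = 0.0034), levels near the lower end of the genes tested. The list's median was -0.06 in HFD vs sHFD, against -0.16 for all genes.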

How the data were processed

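Expression was deposited by the authors as TPM for 18738 genes, all of type mRNA, in 1 column for each of 9 libraries. The submitters' processing notes name RSEM 1.3.1 and GRCm38 without a role. For the aligner and annotation, nothing is stated in those sources. Each column of deposited TPM values sums to 1000000 within rounding. TPM keeps no read number, so depth and the precision it gives are unknown. Columns CON, MID and HIGH were read as ND, sHFD and HFD with their replicate numbers. No pair of columns was identical.

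The 13655 genes whose mean reached 1 TPM were fitted as log2(TPM + 1) in limma 3.58.1 (R 4.3.3) with diet as the factor, all 9 libraries, an intensity trend and 6 residual degrees of freedom. P-values were two-sided and Benjamini-Hochberg adjusted over all 13655 genes (threshold 0.05). The fit was tested on simulated data. Ratios of TPM were tested by exact permutation in Python. The 8 genes and the lists were chosen with earlier results of these data known. From each pathway list at most the 3 genes with the smallest p per comparison were named, besides Myl2 and Pln of the marker sum. For likeness to Tnni1 and Tnni3 the 5 genes with the highest Pearson r were named. Alternatives covered the pseudocount, filter, scaling, trend, libraries and a replicate block. Promoter sequences are from the RefSeq table of GRCm38.p6.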

Additional observations from a re-analysis of the deposited data

How the results depend on the processing

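Across all alternatives 404 of 426 values of the troponin genes kept their direction and their side of the threshold, 7 came past the threshold and 15 changed sign. The log2 difference is fixed in fits that change only the filter, the trend, the replicate block or the libraries of a diet not compared. Those fits are among the 426 values and could move the adjusted p but not the sign. In HFD vs ND the sign changes were Tnni1 after quantile normalization (-0.020), Tnni1, Tnni2, Tnnt1, Tnnt2 and Tnnc1 without ND replicate 1 (-0.098, -0.10, -0.013, -0.066 and -0.15), Tnnt3 without ND replicate 2 (-0.0084), and Tnni1 and Tnnc1 without HFD replicate 1 (-0.12 and -0.13). In sHFD vs ND they were Tnnc2 with a pseudocount of 0.1 TPM (0.0028), without ND replicate 3 (0.25) and without sHFD replicate 3 (0.10), Tnnt1 without ND replicate 3 (0.082) and Tnnt3 without sHFD replicate 1 (0.042). In HFD vs sHFD it was Tnni2 after quantile normalization (0.15). With a library left out these values ran in HFD vs ND from -0.12 to 0.30 for Tnni1, -0.10 to 0.35 for Tnni2, -0.013 to 0.36 for Tnnt1, -0.066 to 0.22 for Tnnt2, -0.0084 to 0.24 for Tnnt3 and -0.15 to 0.32 for Tnnc1, and in sHFD vs ND from -0.24 to 0.082 for Tnnt1, -0.36 to 0.042 for Tnnt3 and -0.16 to 0.25 for Tnnc2. The cause was not tested. With a mean of at least 5 TPM required, Tnni2 and Tnnc2 were not tested. The number of troponin genes called stayed 0 in HFD vs ND and sHFD vs ND in every alternative. In HFD vs sHFD it was 1 after median-ratio scaling, 3 after quantile normalization, 1 with the 2 diets alone, and 0 to 1 with a library left out. Over all genes, HFD vs ND gave 763 calls with no filter and 420 with the 2 diets alone, against 1484, and 32 to 3842 with a library left out. sHFD vs ND gave 0 with a pseudocount of 0.1 or 5 TPM, with no filter, with a mean of at least 5 TPM and with the replicate block, 2 with the 2 diets alone, and 0 to 360 with a library left out. HFD vs sHFD gave 2696 to 5458 with a library left out. The log2 difference in Tnni1/Tnni3 ranged with a library left out from 0.18 to 0.41 in HFD vs ND, 0.03 to 0.17 in sHFD vs ND and 0.09 to 0.31 in HFD vs sHFD, and the exact p over the 3 diets from 0.0357 to 0.318. Replicate numbers are not stated to pair the libraries. Same-numbered libraries had correlated deviations above 0.1 in 4 of 9 pairs, from -0.29 to 0.41. Differently numbered libraries of different diets ranged from -0.35 to 0.35. Such values cannot decide whether same-numbered libraries share a litter or a batch. With the replicate block, permuting diets within a number, the exact permutation p over the 3 diets was 0.0278, the smallest that this permutation allows. It was reached because Tnni1/Tnni3 was in the order HFD, sHFD, ND from high to low within each of the 3 numbers. In limma the replicate block changed no troponin call and gave 1686, 0 and 4722 genes called in HFD vs ND, sHFD vs ND and HFD vs sHFD. The unknown read depth limits the values of Tnnc2, Tnni2 and Tnnt3 most.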
